A study of Mus musculus with 16 samples.

Results

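Mouse mammary tumors under 2 single treatments were compared: 3 tumors treated with the TGF beta inhibitor IPW-5371 alone (TGFbi) and 3 tumors treated with focal radiation alone (RT), 6 of the 16 libraries of the study, chosen by their sample titles and compared across all genes. TGFbi mice received the small molecule at 20 mg/kg daily, and RT tumors received a single dose of 10 Gy. The 3 Sham tumors, the baseline, came from mice given control immunoglobulin at 25 mg/kg. All 9 tumors were Trp53 null mammary carcinomas of 1 transplant family, family F, grown in the mammary gland of BALB/cJ females aged 8 to 10 weeks at transplantation. Mice were randomized at tumor volumes of 65 to 100 mm3, and tumors were collected on day 7 after treatment. The family is a single tumor lineage and not a sample of independent tumors. Whether TGFbi and RT mice also received the immunoglobulin is not given in the sources used here. The TGFbi+RT group (both treatments) and the triple group (both plus an antibody to PD-L1), 3 tumors each, entered the fit and are cited where they bear on a gene.

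TGF beta is released from a latent complex in the matrix, a step that ionizing radiation is known to trigger, and signals through paired receptor kinases to the SMAD transcription factors. In the mammary gland it restrains epithelial growth and drives fibroblasts to make matrix. Radiation breaks DNA, and the repair, death and inflammatory programs that follow are partly run by p53, which these tumors lack by genotype. The comparison therefore sets the transcriptome of tumors given an inhibitor of the pathway beside that of tumors a week after irradiation.

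Total counts were 11002869 to 15503134 in the 6 tumors and 13302488 to 17184023 in Sham. TGFbi, TGFbi+RT and Sham libraries carry the name code A2301 and RT libraries the code A2304. Treatment and library code therefore cannot be told apart between TGFbi and RT. TGFbi replicate 3 was resubmitted, per its label. Of the 15 tumors, the triple group alone holds both codes (replicate 1 against replicates 2 and 3), so adding the code to the model rests on that group. Its replicate 2 lay farthest out of all tumors on the first principal component (114, against 8.11 and 27.2 in replicates 1 and 3). Values with the code term therefore cannot tell a code effect from differences among these 3 tumors. Some tumors stood apart within their group. RT replicate 1 and Sham replicate 1 were rich in matrix transcripts (Col1a1, type I collagen, at 4281 and 4316 CPM against 218 to 1846 CPM in the other 7 tumors), TGFbi replicate 1 carried adipocyte and keratin transcripts, and TGFbi replicate 3 had 6.45% of its counts on mitochondrial genes against 2.24% to 3.70% in the other 8, and 6.30% on the small nuclear RNA Rn7sk against 1.62% to 2.39%. CPM are counts scaled to a common library size (TMM). Epithelial identity was visible in all 6 tumors, with Epcam at 127 to 203 CPM and Trp63, a basal epithelial factor, at 505 to 847 CPM. Trp53 transcripts measured 79.0, 92.7 and 80.9 CPM in TGFbi, against 74.2, 77.1 and 79.6 CPM in RT. A count over the whole gene does not check the null allele.

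Across 16017 genes, 2 passed an adjusted p of 0.05 in edgeR's quasi-likelihood test, 0.0125% of those tested, and both fell in TGFbi relative to RT. They were Fbln7, a secreted glycoprotein of the fibulin family that cells adhere to, and Ndp, which encodes Norrin, a secreted ligand of the receptor Frizzled-4 that turns on beta-catenin signaling and is best known from the vessels of the retina. At an unadjusted p under 0.05, 1018 genes (6.36%) differed, 395 higher (2.47%) and 623 lower (3.89%) in TGFbi. Sample ranges were apart, with all TGFbi tumors above or all below every RT tumor, for 2408 genes (15.0%), 1055 higher (6.59%) and 1353 lower (8.45%). The count of calls depended on the tool, since DESeq2 called 66 genes (27 higher and 39 lower, both edgeR genes among them) and limma-voom 0, with 981 at an unadjusted p under 0.05.

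**Figure D1:**
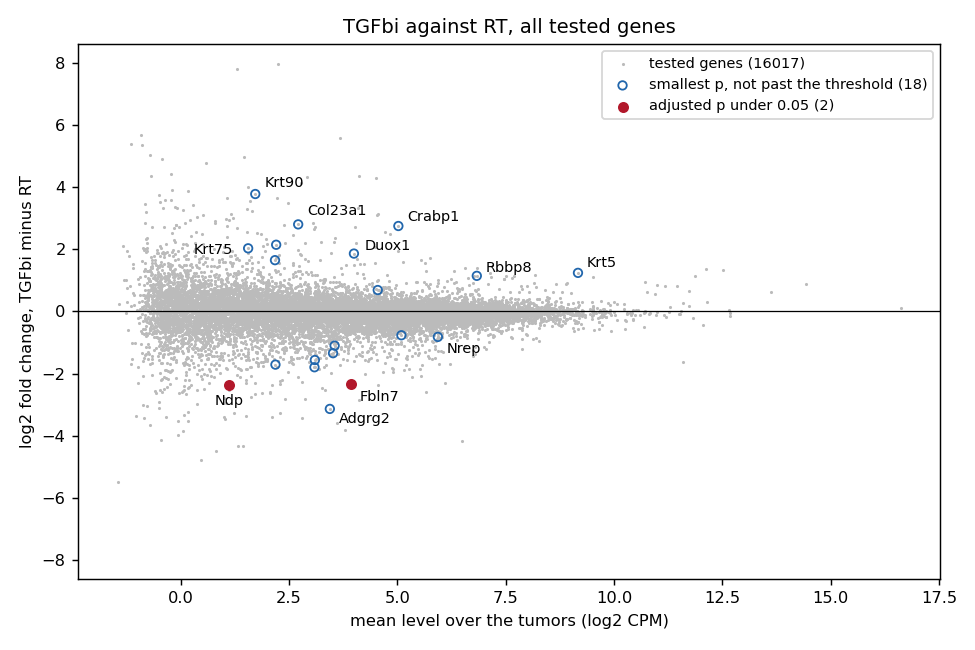
Each point is 1 of 16017 tested genes, with its mean level over the 15 tumors (log2 CPM) on the x axis and its log2 fold change, TGFbi minus RT, on the y axis. Filled circles are the 2 genes past the threshold, Fbln7 at -2.35 and Ndp at -2.36; open circles are the 18 other genes with the smallest p, 10 above and 8 below 0.

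The 250 bases upstream of the annotated start of these genes are printed because they are the only genes called in the comparison and the inhibitor acts on the SMAD pathway. They come from RefSeq (GRCm38.p6), 5′ to 3′ on the strand of the gene, and capitals mark GTCT, the minimal SMAD-binding core (AGAC on the other strand).
Fbln7, chr2:128863682-128863931, plus strand: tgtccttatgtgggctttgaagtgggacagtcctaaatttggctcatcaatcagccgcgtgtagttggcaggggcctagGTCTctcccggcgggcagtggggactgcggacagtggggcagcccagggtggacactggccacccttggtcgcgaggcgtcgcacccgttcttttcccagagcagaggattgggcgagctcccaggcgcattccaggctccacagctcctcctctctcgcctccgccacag
Ndp, chrX:16911775-16912024, minus strand: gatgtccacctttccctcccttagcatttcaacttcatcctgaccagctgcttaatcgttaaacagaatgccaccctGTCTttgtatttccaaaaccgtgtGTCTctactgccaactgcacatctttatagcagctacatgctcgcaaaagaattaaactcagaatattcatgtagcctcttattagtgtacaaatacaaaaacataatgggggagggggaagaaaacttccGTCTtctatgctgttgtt
GTCT occurred 1 time in the Fbln7 window and 3 times in the Ndp window, and AGAC in neither. So short a motif is common: 80.8% of 15102 tested genes' windows of this length held it on one strand or the other. The longer CAGAC, searched on both strands as CAGAC and GTCTG, was in 41.1% of those windows and in neither of these.

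Fbln7 (Entrez 70370, chromosome 2, 128863932 to 128897034) had 3.69, 3.19 and 4.69 CPM in TGFbi, against 22.1, 19.8 and 17.0 CPM in RT and 21.8, 25.4 and 18.5 CPM in Sham. Every TGFbi tumor lay far below every RT and Sham tumor, and RT overlapped Sham. The log2 fold change was -2.35 ± 0.29 (SE; edgeR adjusted p = 0.0186) against RT and -2.50 against Sham (adjusted p = 0.0157), while RT minus Sham was -0.16. With radiation added to the inhibitor, the TGFbi+RT tumors had 15.2, 12.3 and 9.64 CPM, between the 2 single treatments.

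Ndp (Entrez 17986, chromosome X, 16885521 to 16911764) was a low transcript, with 0.703, 0.718 and 0.970 CPM in TGFbi, against 2.81, 4.95 and 4.64 CPM in RT and 1.79, 2.05 and 2.01 CPM in Sham. Here the groups formed 3 separate levels, with TGFbi below Sham and RT above it. The log2 fold change was -2.36 ± 0.29 (SE; edgeR adjusted p = 0.0186) against RT; relative to Sham it was -1.28 in TGFbi (adjusted p = 0.298) and 1.08 in RT (adjusted p = 0.999), neither past the threshold. TGFbi+RT tumors had 1.26, 1.10 and 1.11 CPM, nearer TGFbi than RT.

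Both kept their direction under all 21 alternatives, at -2.05 to -2.51 for Fbln7 and -2.21 to -2.57 for Ndp, but the calls were less stable than the sizes. Leaving out any 1 of the 6 tumors removed the call of Fbln7, and any but RT replicate 1 that of Ndp. Both calls were also lost without Sham replicate 3, with the library code as a term (edgeR adjusted p = 0.854 for each) and when the 6 tumors were fitted alone. The same held by limma-voom, with the replicate block and without the resubmitted libraries. The call of Ndp alone was lost in the 9 TGFbi, RT and Sham tumors (edgeR adjusted p = 0.130) and with no low-count filter (0.0549). It was also lost without TGFbi+RT replicate 3 and triple replicate 2 (0.0646). Within the triple group, Fbln7 had 15.0 CPM in the tumor coded A2301 and 24.9 and 12.1 CPM in those coded A2304, and Ndp had 1.80 CPM against 1.97 and 2.03 CPM.

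**Figure D2:**
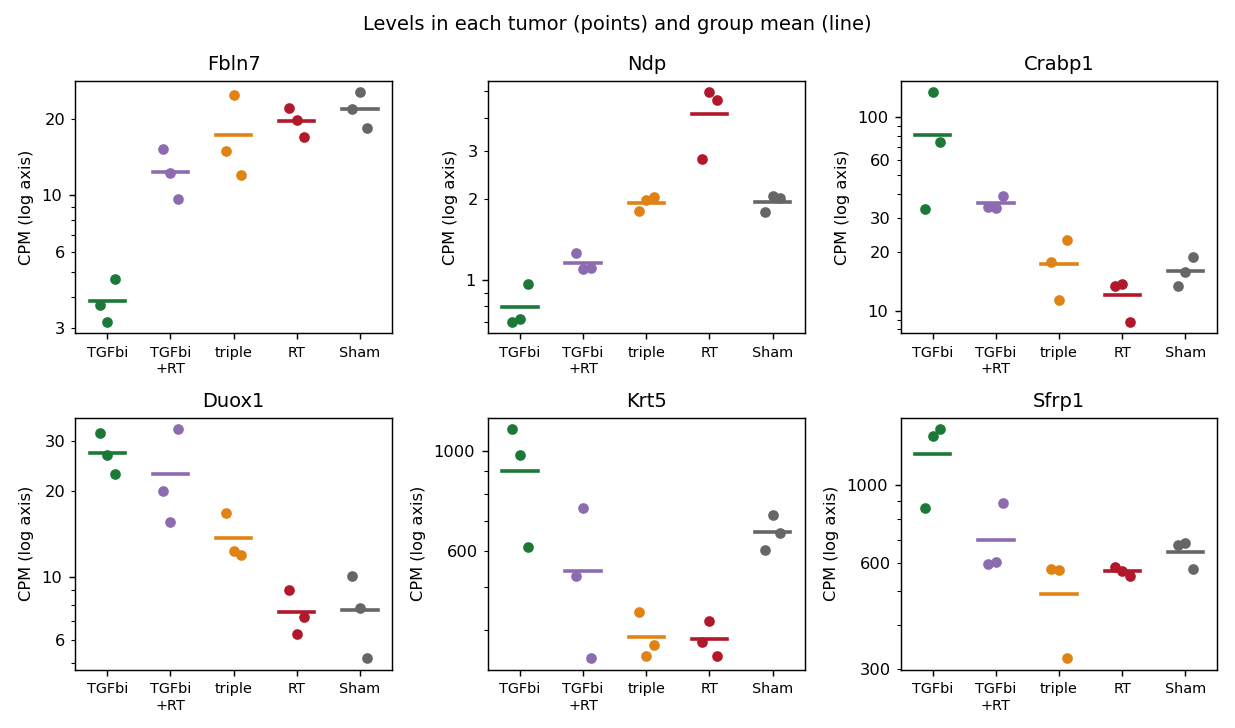
Levels (CPM, log axis) of 6 genes in each of the 3 tumors of a group (points) and the group mean (line), in TGFbi, TGFbi+RT, the triple group, RT and Sham. TGFbi tumors lie below all others for Fbln7 and Ndp; for Crabp1, Duox1, Krt5 and Sfrp1 they lie above every RT tumor.

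The Wnt and Norrin list had 24 tested members, of which 1 passed the threshold (Ndp, lower). A further 6 were lower and 1 higher at an unadjusted p under 0.05, so that 8 of 24 reached it, where 6.36% of all genes did; the list median was -0.24, against -0.02 over all genes. The members concerned were ligands, feedback inhibitors and target genes of the pathway, not its receptors. Nkd1, Notum, Lef1, Axin2 and the receptors were named after their values were seen.

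Nkd2, which binds Dishevelled and damps the signal, had 24.1, 49.8 and 51.4 CPM in TGFbi, against 71.7, 75.1 and 154 CPM in RT and 102, 42.9 and 61.6 CPM in Sham (log2 fold change -1.26 ± 0.40, edgeR adjusted p = 0.602). Its relative Nkd1 had 2.11, 0.399 and 1.29 CPM in TGFbi, against 3.12, 3.12 and 3.58 CPM in RT. Both were apart between the groups. Notum is an enzyme that strips the lipid from Wnt ligands and is itself induced by them. It was near the floor in TGFbi, with 0.616, 0.0797 and 2.10 CPM, against 5.36, 7.60 and 6.11 CPM in RT. Axin2, the standard beta-catenin target and a scaffold of its destruction complex, had 19.3, 8.69 and 10.8 CPM in TGFbi, against 16.7, 21.1 and 34.0 CPM in RT, with overlap. Lef1, a partner of beta-catenin on DNA, was uneven among RT tumors, at 0.967, 0.0797 and 1.13 CPM in TGFbi, against 2.06, 0.543 and 20.5 CPM in RT.

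The ligand Wnt5b had 1.67, 1.12 and 1.54 CPM in TGFbi, against 4.30, 4.68 and 6.82 CPM in RT and 2.98, 1.47 and 2.85 CPM in Sham, a log2 fold change of -1.86 ± 0.64 (edgeR adjusted p = 0.612). Sfrp1, a secreted antagonist that binds Wnt ligands, was the member on the other side. It had 860, 1380.4 and 1447 CPM in TGFbi, against 586, 569 and 550 CPM in RT and 678, 686 and 578 CPM in Sham, so that every TGFbi tumor lay above every RT and Sham tumor (1.11 ± 0.25, edgeR adjusted p = 0.295). Between overlapping groups, the log2 fold change was 0.27 for Fzd4, the receptor of Norrin, and -0.25 for its co-receptor Lrp5. Without RT replicate 1, 7 members were lower and 1 higher at an unadjusted p under 0.05, and without TGFbi replicate 1 these counts were 6 and 1. They were not made without RT replicate 3, the highest RT tumor for Nkd2, Axin2 and Lef1. With 1 tumor left out, log2 fold changes ran from -1.45 to -0.81 for Nkd2, -1.29 to -0.55 for Axin2 and -3.95 to -0.84 for Lef1. The list median ran from -0.35 to -0.15. With the library code as a term the list median was -0.27.

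**Figure D3:**
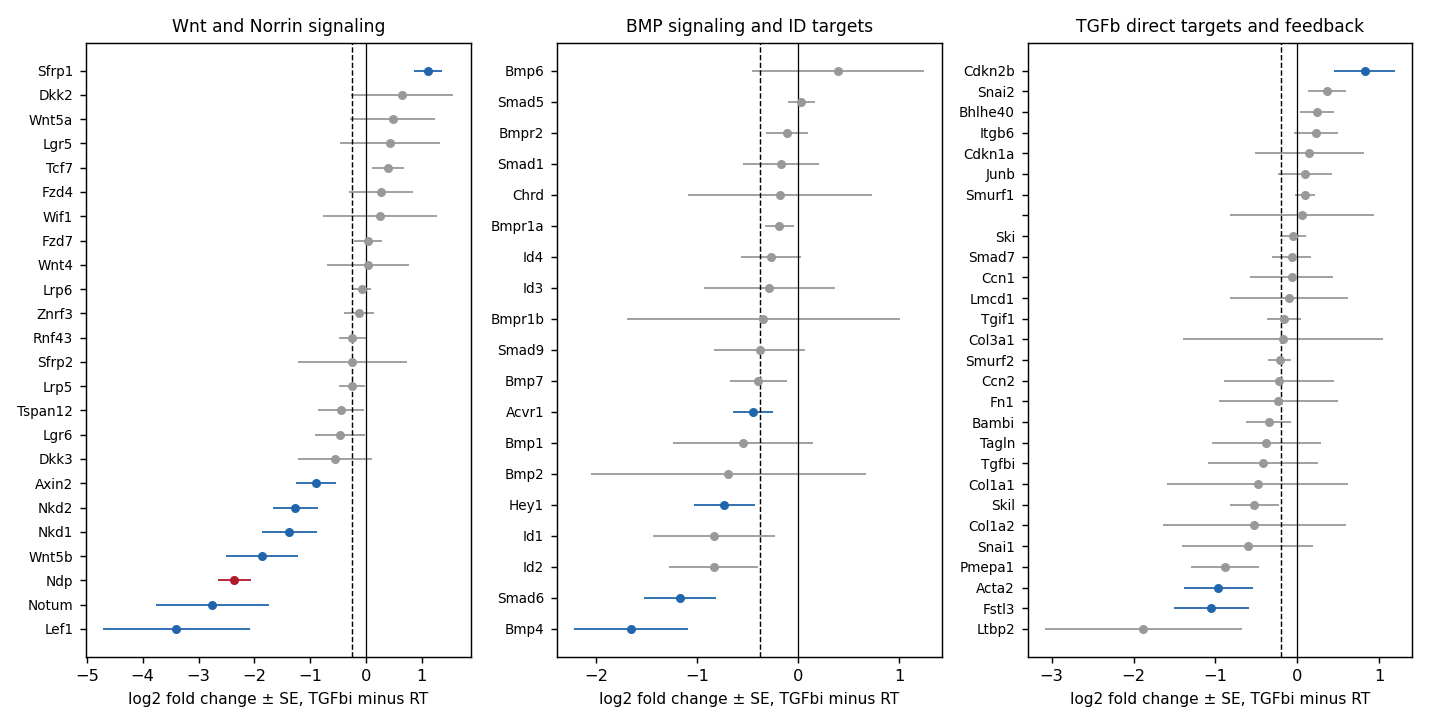
Log2 fold change ± SE, TGFbi minus RT, for the tested members of the Wnt and Norrin (24), BMP (19) and TGFb target (28) lists. Red marks an adjusted p under 0.05 (Ndp), blue an unadjusted p under 0.05 and grey the rest; 1 TGFb target is left unlabelled, and dashed lines are the list medians, at -0.24, -0.38 and -0.20.

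In the TGF beta pathway itself, none of 28 tested direct targets and feedback genes passed the threshold, 20 lay below 0, and the median was -0.20. Of the 28, 4 were apart and lower (14.3%, against 8.45% of all genes) and 3 apart and higher (10.7%, against 6.59%). Fstl3, an activin-binding inhibitor, had 1.23, 1.28 and 1.45 CPM in TGFbi, against 2.62, 2.31 and 3.30 CPM in RT (-1.05 ± 0.46, edgeR adjusted p = 0.744). Acta2, smooth muscle actin, had 147, 115 and 190 CPM in TGFbi, against 369, 249 and 266 CPM in RT and 604, 437 and 221 CPM in Sham. Pmepa1, a feedback inhibitor of SMAD signaling, had 82.0, 86.2 and 98.2 CPM in TGFbi, against 180, 126 and 186 CPM in RT. These 3 genes were apart and lower in TGFbi. Cdkn2b, a cyclin kinase inhibitor, was apart and higher, at 9.67, 5.98 and 7.27 CPM in TGFbi, against 5.11, 2.85 and 4.99 CPM in RT. The textbook target Smad7, named after its value was seen, was at -0.07. The median turned to 0.32 without RT replicate 1, the matrix-rich tumor, and to 0.38 with the library code as a term.

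Among 21 tested ligands, receptors and activators, 0 passed the threshold. Of these, 7 were apart and lower (33.3%, against 8.45% of all genes) and 2 apart and higher (9.52%, against 6.59%). The median was -0.25 (0.17 without RT replicate 1 and 0.23 with the code term). Tgfb1 had 50.8, 47.8 and 66.4 CPM in TGFbi, against 80.3, 36.3 and 38.8 CPM in RT. The drug's pathway receptor Tgfbr1 had 51.5, 50.9 and 60.1 CPM in TGFbi, against 91.3, 69.6 and 64.5 CPM in RT (-0.47 ± 0.36, edgeR adjusted p = 0.964; 0.51 with the code term). The ligand thus overlapped while the receptor was apart by a small margin. Ltbp1 and Ltbp3, which hold TGF beta in its latent form in the matrix, were apart and lower: Ltbp1 had 13.5, 6.06 and 10.3 CPM in TGFbi, against 21.3, 29.5 and 22.8 CPM in RT, and Ltbp3 had 55.5, 59.8 and 67.8 CPM in TGFbi, against 114, 87.9 and 94.5 CPM in RT. The co-receptor Eng was at -0.49. Tgfbr3, the co-receptor betaglycan, was apart and higher, at 405, 279 and 253 CPM in TGFbi, against 181, 192 and 154 CPM in RT and 273, 446 and 270 CPM in Sham (0.83 ± 0.25, edgeR adjusted p = 0.583).

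In the sister branch of BMP signaling, 17 of 19 tested members lay below 0, with a median of -0.38. None passed the threshold. At an unadjusted p under 0.05, 4 were lower, where 3.89% of all genes were. Of the 19, 6 were apart and lower (31.6%, against 8.45% of all genes) and 0 apart and higher. The ligand Bmp4 had 0.703, 0.319 and 0.323 CPM in TGFbi, against 1.56, 1.29 and 1.41 CPM in RT and 4.29, 2.78 and 1.56 CPM in Sham. Bmp4 reads were few, 16 over the TGFbi tumors and 64 over the RT tumors. Smad6, an inhibitory SMAD induced by BMP, had 5.80, 2.95 and 4.61 CPM in TGFbi, against 13.6, 6.65 and 9.77 CPM in RT (-1.17 ± 0.36, edgeR adjusted p = 0.584). Hey1, a Notch and BMP target, had 11.3, 9.01 and 8.81 CPM in TGFbi, against 18.1, 14.6 and 15.6 CPM in RT and 30.1, 22.2 and 15.4 CPM in Sham. In all 3 every TGFbi tumor lay below every RT tumor, and the type I receptor Acvr1 was apart and lower too (-0.45). With the library code as a term the median turned to 0.22, and Hey1 (0.22) and Acvr1 (0.21) turned with it.

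Epithelial keratins were among the genes at the higher end of the comparison. Of the 10 genes with the smallest p above 0, none past the threshold, 3 were type II keratins of the chromosome 15 cluster. Krt5, the keratin of basal and myoepithelial cells, had 1117, 978 and 612 CPM in TGFbi, against 377, 418 and 351 CPM in RT and 603, 721 and 658 CPM in Sham (1.24 ± 0.26, edgeR adjusted p = 0.295). TGFbi thus overlapped Sham, and RT lay below both. Krt75, a keratin of the hair follicle, had 7.12, 4.62 and 4.93 CPM in TGFbi, against 0.748, 1.22 and 2.11 CPM in RT and 1.13, 0.819 and 1.62 CPM in Sham. Krt90 had 12.8, 6.78 and 8.08 CPM in TGFbi, against 0.748, 0.475 and 0.773 CPM in RT and 4.24, 0.819 and 0.908 CPM in Sham (3.77 ± 0.60, edgeR adjusted p = 0.113). For Krt75 and Krt90, every TGFbi tumor lay above every Sham tumor too. Krt90 and Krt75 are neighbors on the minus strand with 392 bases between them, so their counts may share a source, which was not tested.

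Over the keratin family, taken by symbol after these values were seen, 17 of 25 tested members lay above 0 with a median of 0.59. Of the 25, 4 were apart and higher and 3 apart and lower, where 6.59% and 8.45% of all genes were. Among 16 basal and myoepithelial markers the median was 0.28, with 9 above 0. Itgb4, the integrin that anchors basal cells to laminin, had 94.0, 133 and 98.8 CPM in TGFbi, against 71.3, 61.6 and 75.7 CPM in RT and 79.2, 67.2 and 72.0 CPM in Sham. Egfr, the EGF receptor, had 109, 73.9 and 66.8 CPM in TGFbi, against 56.3, 27.3 and 41.8 CPM in RT and 95.6, 77.4 and 51.1 CPM in Sham. Both were apart from RT. Acta2, which myoepithelial cells also make and whose values are given above, was the 1 list member apart and lower (-0.97), and 7 of 16 members lay below 0. Other basal keratins, named after their values were seen, did not follow Krt5. Krt14 had 269, 40.0 and 42.3 CPM in TGFbi, against 95.7, 61.5 and 94.9 CPM in RT. Krt17 had 693, 126 and 74.2 CPM in TGFbi, against 118, 132 and 175 CPM in RT. Both overlapped RT and were highest in TGFbi replicate 1, and Krt15 was at -0.21. The basal median was -0.15 without TGFbi replicate 1.

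All 12 tested squamous and cornified envelope genes lay above 0, with a median of 2.18 and 0 past the threshold. At an unadjusted p under 0.05, 4 were higher, where 2.47% of all genes were. The tumors were far from even. Krt10, a keratin of cells that leave the basal layer, had 5.89, 6.94 and 54.1 CPM in TGFbi, against 4.30, 4.68 and 5.34 CPM in RT, and its partner Krt1 had 0.879, 0.159 and 31.4 CPM in TGFbi, against 0.187, 0.475 and 0.351 CPM in RT. Both were thus carried by TGFbi replicate 3. Krtdap had 1.06, 0.0797 and 4.04 CPM in TGFbi, against 0.0624, 0.0679 and 0 CPM in RT, and the cornified envelope protein Lor had 1.85, 1.12 and 3.23 CPM in TGFbi, against 0.374, 0.611 and 0.351 CPM in RT. Reads of both were few, with 63 of Krtdap over the TGFbi tumors and 2 over the RT tumors, and 75 and 20 of Lor. Summed over the list, TGFbi tumors had 337, 18.5 and 124 CPM, against 66.5, 46.5 and 28.8 CPM in RT and 163, 73.8 and 47.1 CPM in Sham, so that 1 TGFbi tumor lay below every RT tumor. Without TGFbi replicate 1, 7 of 12 members lay above 0.

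Luminal markers pointed the other way in part, with a median of -0.35. Of 19 tested members, 6 were apart and lower (31.6%, against 8.45% of all genes). Those apart and higher numbered 0, where 6.59% of all genes were. Relative to Sham, the list median was -0.19 in TGFbi and 0.41 in RT. Elf5, the factor of luminal progenitors, had 12.8, 9.73 and 20.8 CPM in TGFbi, against 37.9, 51.0 and 47.7 CPM in RT and 27.8, 9.09 and 22.8 CPM in Sham (-1.65 ± 0.54, edgeR adjusted p = 0.602). Cldn3, a tight junction protein, had 8.35, 2.39 and 7.27 CPM in TGFbi, against 18.4, 24.6 and 16.9 CPM in RT and 31.7, 3.52 and 13.4 CPM in Sham. Both were apart between TGFbi and RT, and Sham spanned a wide range. Krt19 did not follow, at 45.0, 0.399 and 0.646 CPM in TGFbi, against 1.50, 0.407 and 0.351 CPM in RT, a level set by TGFbi replicate 1 (log2 fold change -0.53 without it, where the median of the list was -1.33).

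The other genes at the higher end had varied roles and 0 passed the threshold. Crabp1, a carrier of retinoic acid, had 33.7, 134 and 74.4 CPM in TGFbi, against 13.5, 13.8 and 8.78 CPM in RT and 13.4, 15.9 and 18.9 CPM in Sham (2.75 ± 0.42, edgeR adjusted p = 0.106). Duox1, an oxidase that releases hydrogen peroxide, had 32.1, 26.9 and 23.1 CPM in TGFbi, against 9.04, 6.31 and 7.24 CPM in RT and 10.1, 7.78 and 5.19 CPM in Sham (1.86 ± 0.31, edgeR adjusted p = 0.144). In both, RT overlapped Sham and TGFbi stood alone. In TGFbi+RT tumors Crabp1 had 34.3, 33.8 and 39.1 CPM and Duox1 had 20.1, 15.7 and 33.1 CPM, above every RT tumor as well. These libraries carry the code of TGFbi. The triple tumors, also given the inhibitor, had 17.7, 11.4 and 23.2 CPM of Crabp1, overlapping RT. Their Duox1 was at 16.7, 12.4 and 12.0 CPM, above every RT tumor.

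Col23a1, a collagen that spans the cell membrane, had 29.8, 14.3 and 7.76 CPM in TGFbi, against 3.55, 2.17 and 1.69 CPM in RT and 3.40, 2.78 and 2.07 CPM in Sham. Rbbp8, which encodes CtIP, the nuclease partner that resects broken DNA ends for homologous recombination, had 267, 161 and 125 CPM in TGFbi, against 76.3, 91.0 and 82.6 CPM in RT and 92.3, 121 and 117 CPM in Sham (1.14 ± 0.24, edgeR adjusted p = 0.295). Both were above every RT and Sham tumor. The remaining 3 were Tmem161b (0.69) and the transcripts C030034L19Rik (2.14) and 4930563F08Rik (1.65). Ntrk3, the neurotrophin-3 receptor, named after its value was seen, was at 1.56 with an adjusted p of 0.295 in edgeR's fit of all 15 tumors, and was the single gene called when the 6 tumors were fitted alone (1.58, edgeR adjusted p = 0.0251). It was also called in the 9 TGFbi, RT and Sham tumors (edgeR adjusted p = 0.00200) and without TGFbi+RT replicate 3 and triple replicate 2 (0.0225).

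At the lower end, 8 further genes were taken by the smallest p, none past the threshold, and 7 of them are given here. Adgrg2, an adhesion G protein-coupled receptor, had 3.43, 2.55 and 2.26 CPM in TGFbi, against 13.8, 11.8 and 47.0 CPM in RT and 12.4, 5.49 and 8.56 CPM in Sham (-3.14 ± 0.59, edgeR adjusted p = 0.295). Chadl, a leucine-rich repeat protein of the matrix, had 2.90, 2.87 and 3.88 CPM in TGFbi, against 11.2, 8.75 and 13.6 CPM in RT and 15.8, 8.51 and 14.3 CPM in Sham. In both genes TGFbi lay below both RT and Sham, and RT overlapped Sham. As with Fbln7, RT minus Sham was small for Chadl (-0.20). For Adgrg2 it was 1.45, with TGFbi minus Sham at -1.68, neither past the threshold. Gpd1l, a relative of glycerol-3-phosphate dehydrogenase, had 26.9, 25.8 and 24.6 CPM in TGFbi, against 45.8, 41.8 and 43.9 CPM in RT and 34.5, 32.4 and 34.0 CPM in Sham, 3 separate and tight levels like those of Ndp. Nrep was at -0.82, Tspyl3 at -1.34, BC034090 at -1.10 and Rtl6 at -1.71. DESeq2 called all 20 genes taken from the 2 ends (10 a direction, Fbln7 and Ndp among them). Limma-voom, the replicate block, the library code as a term and the fit of the 6 tumors alone called 0 of the 20. Each gene kept its direction in all of these. The 20 were chosen by edgeR's p on the same counts, so these results are no independent check.

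Of the hypoxia and glycolysis genes, 29 of 31 tested members lay above 0 in TGFbi against RT, 10 apart and higher (32.3% where 6.59% of all genes were) and 0 apart and lower, with a median of 0.43. None passed the threshold. Slc2a1, the glucose transporter GLUT1, had 151, 187 and 174 CPM in TGFbi, against 73.8, 79.0 and 82.8 CPM in RT and 269, 190 and 145 CPM in Sham (1.12 ± 0.36, edgeR adjusted p = 0.602). Pfkp, a phosphofructokinase, had 90.0, 151 and 103 CPM in TGFbi, against 56.3, 51.7 and 55.8 CPM in RT and 101, 133 and 117 CPM in Sham. Egln3, a prolyl hydroxylase that marks HIF for degradation and is itself induced in hypoxia, had 78.8, 152 and 132 CPM in TGFbi, against 55.5, 40.5 and 68.9 CPM in RT and 198, 163 and 180 CPM in Sham. RT was the low group in each of these 3 genes, while TGFbi overlapped Sham for Slc2a1 and Pfkp.

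Against Sham the list median was -0.33 in TGFbi and -0.72 in RT, 2 comparisons that share the Sham tumors, and 13 of 31 members were apart and lower in TGFbi (7.88% of all genes were) and 25 of 31 in RT (6.28%). Summed CPM of the list were 5929, 6934 and 6092 in TGFbi, against 4360.4, 4806 and 5790.2 in RT and 8493, 8054 and 8402 in Sham. The 3 groups therefore did not overlap, with Sham highest and RT lowest. The median stayed above 0 under every alternative run, at 0.65 with the library code as a term. In bulk tissue, fewer cells of a kind and less RNA per cell cannot be told apart.

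All 13 tested transcripts of the mitochondrial genome lay above 0, with a median of 0.82 and 0 past the threshold. Of these, 9 were apart and higher (69.2%, against 6.59% of all genes). At an unadjusted p under 0.05, 11 were higher, where 2.47% of all genes were. ND1, a core subunit of complex I, had 3238, 4688 and 9665 CPM in TGFbi, against 2755, 2598 and 2612 CPM in RT and 1998, 3688 and 2344 CPM in Sham. ND6 had 481, 524 and 1019 CPM in TGFbi, against 423, 335 and 353 CPM in RT. The third TGFbi tumor, the resubmitted library, was the highest in both. Without the resubmitted libraries the median was 0.36 and 1 of 13 reached an unadjusted p under 0.05. The 25 nuclear-encoded respiratory chain genes tested had a median of -0.03.

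**Figure D4:**
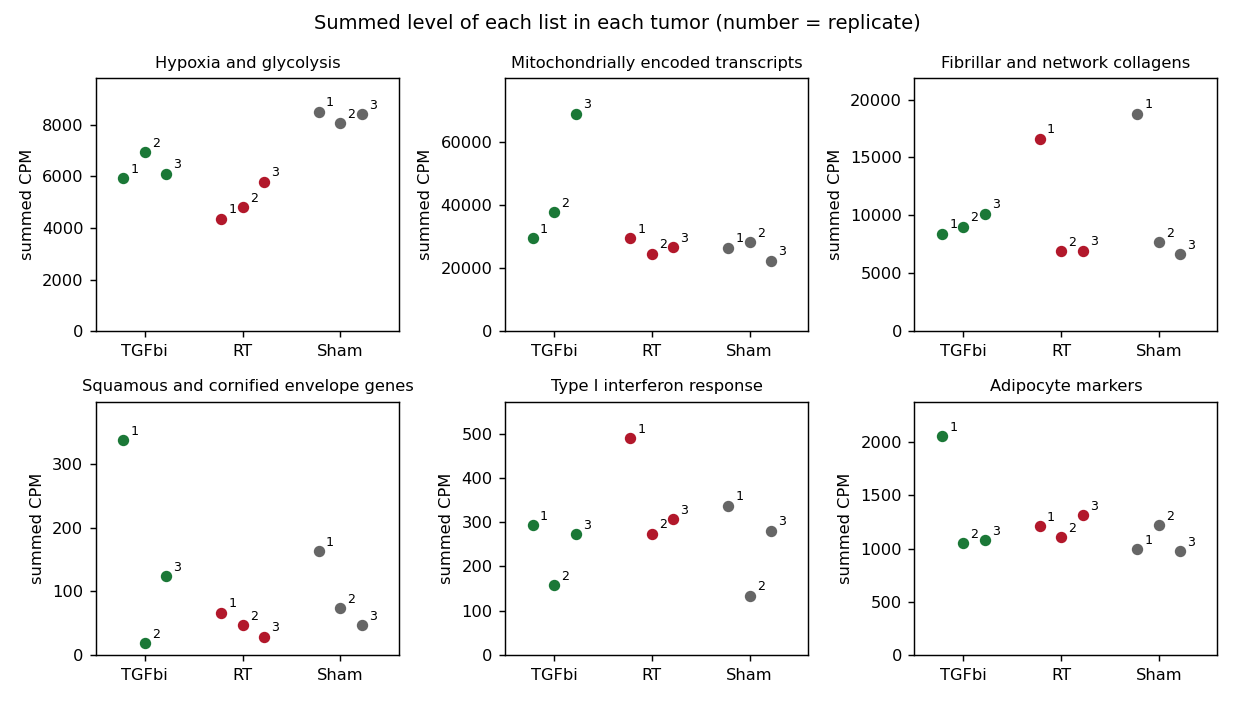
Summed CPM of 6 gene lists in each tumor of TGFbi, RT and Sham; the number beside a point is the replicate. Hypoxia and glycolysis form 3 separate levels, whereas RT replicate 1 and Sham replicate 1 carry the collagens, TGFbi replicate 3 the mitochondrial transcripts and TGFbi replicate 1 the squamous and adipocyte sums.

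Medians of 4 matrix and stroma lists were below 0, a direction that turned on RT replicate 1, and that of another was above 0. Of 18 collagens 14 lay below 0 (median -0.40), of 31 matrix glycoproteins and crosslinking enzymes 25 (median -0.39, Fbln7 the 1 call), of 14 activated fibroblast markers 11 (median -0.46) and of 12 pericyte and smooth muscle markers 11 (median -0.53). Of 13 resting fibroblast markers 10 lay above 0 (median 0.40, and 1.76 without RT replicate 1), with 0 apart, where 15.0% of all genes were. Collagen sums were 8415, 9004 and 10159 CPM in TGFbi, against 16631, 6882 and 6941 CPM in RT and 18789, 7664 and 6656 CPM in Sham. TGFbi therefore lay between RT replicate 1 and the other RT tumors. Without RT replicate 1 the medians of the first 4 lists turned to 0.70, 0.31, 0.49 and 0.00, and with the library code as a term to 1.24, 0.71, 0.98 and 0.42. Fbln7 did not share that pattern, with RT replicate 1 at 22.1 CPM beside 19.8 and 17.0 CPM.

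Of 30 type I interferon response genes 27 lay below 0, with a median of -0.61, but 0 reached even an unadjusted p under 0.05. Against Sham the list median was 0.21 in TGFbi, with 22 of 30 above 0, and 0.86 in RT, with 29 of 30. The list as a whole was thus not below Sham in TGFbi, though Isg15 was at the low side. Isg15, a ubiquitin-like modifier, had 6.07, 2.55 and 3.72 CPM in TGFbi, against 10.9, 5.97 and 20.0 CPM in RT and 12.8, 4.01 and 10.9 CPM in Sham. Irf9, part of the interferon-activated transcription complex, had 14.1, 10.1 and 15.4 CPM in TGFbi, against 24.9, 20.3 and 20.4 CPM in RT and 19.9, 9.01 and 18.6 CPM in Sham. In all, 6 members, Irf9 among them, were apart and lower, 20.0% where 8.45% of all genes were. The 30 genes split 15 to 15 without RT replicate 1 (median -0.04), and the median turned to 1.78 with the code term, Isg15 to 0.44 and Irf9 to 0.32. T cell markers (22 tested, median -0.38) and macrophage markers (20 tested, median -0.32) had 0 members apart, where 15.0% of all genes were. Against Sham the T cell median was 0.66 in TGFbi and 1.16 in RT, and the macrophage median 0.44 and 0.70. The summed macrophage markers were 1027, 745 and 1572 CPM in TGFbi, against 2659, 805 and 449.6 CPM in RT. Cd274, which encodes PD-L1, had 7.21, 2.87 and 5.58 CPM in TGFbi, against 6.05, 2.44 and 2.39 CPM in RT.

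Programs known to answer DNA damage had medians near 0. The 26 p53 target genes had a median of -0.02, equal to that of all genes, with 11 above 0. In each direction 1 was apart (3.85%, where 6.59% of all genes were higher and 8.45% lower). Ei24 had the smallest p of the 26, at -0.42. Of 25 homologous recombination and Fanconi anemia genes 22 lay above 0, with a median of 0.18. Of the 25, 6 were apart and higher (24%, against 6.59% of all genes), Rbbp8 leading. Brca2, a core protein of homologous recombination, had 83.3, 78.3 and 57.5 CPM in TGFbi, against 56.6, 59.6 and 48.4 CPM in RT, with overlap. The median of that list was -0.11 with the code term, and that of 20 end-joining genes was 0.05 (-0.16 with the code term).

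Of 19 apoptosis regulators, 0 passed the threshold, 6 were apart and lower (31.6%, against 8.45% of all genes) and 0 apart and higher. At an unadjusted p under 0.05, 4 were lower, where 3.89% of all genes were. The list median was -0.10, and 0.16 with the library code as a term. The set with lower values held both signs of the BCL2 family. Bcl2, which blocks cell death, had 27.5, 27.7 and 36.5 CPM in TGFbi, against 48.5, 40.2 and 51.6 CPM in RT and 35.6, 31.0 and 37.5 CPM in Sham (-0.61 ± 0.20, edgeR adjusted p = 0.602), and Bcl2l1 (BCL-XL), of the same action, was at -0.70. Bcl2l11 (BIM), which promotes death, had 43.4, 34.9 and 50.2 CPM in TGFbi, against 62.1, 59.0 and 79.4 CPM in RT and 77.2, 46.2 and 55.8 CPM in Sham. Bmf, also promoting death, had 4.40, 4.07 and 5.41 CPM in TGFbi, against 17.1, 9.70 and 13.3 CPM in RT and 10.8, 1.96 and 6.87 CPM in Sham. For these genes TGFbi overlapped Sham. Among 18 adipocyte markers 17 lay above 0, with 0 apart, where 15.0% of all genes were. Their median was 1.14, and -0.36 without TGFbi replicate 1.

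**Figure D5:**
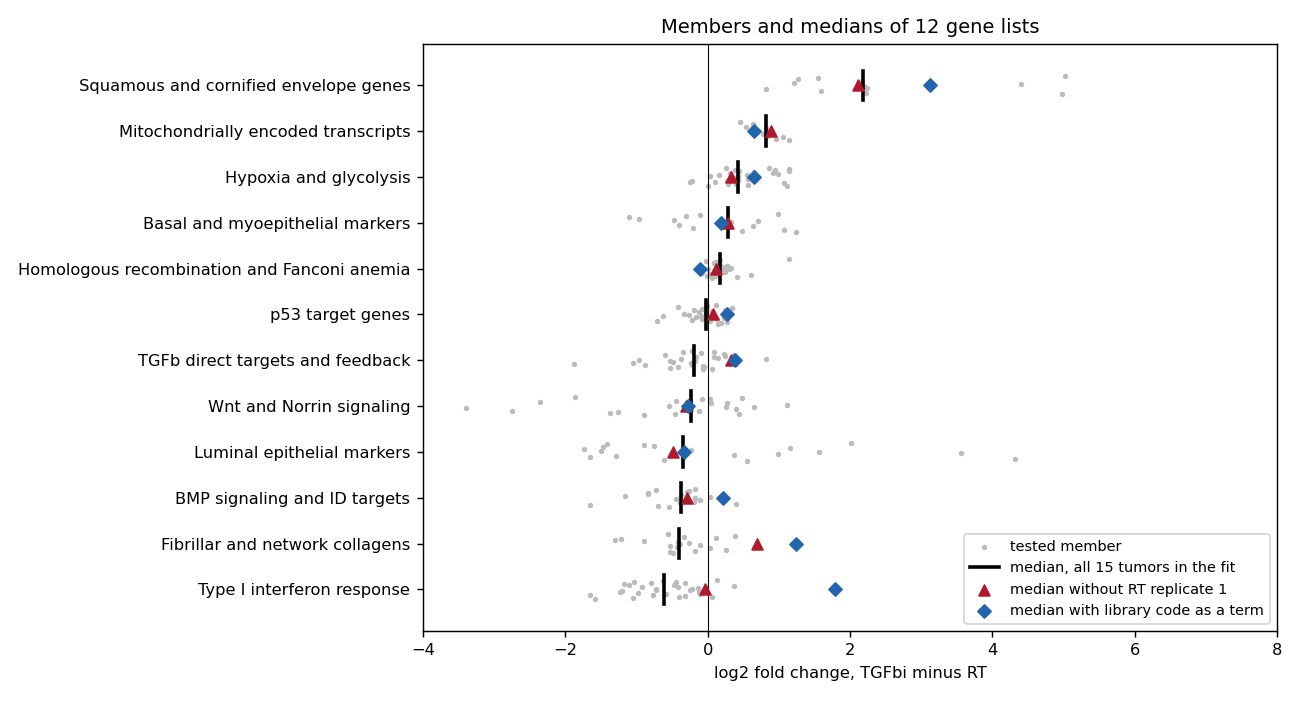
Log2 fold changes, TGFbi minus RT, of the tested members (grey) of 12 gene lists, with the list median (bar), the median without RT replicate 1 (triangle) and the median with library code as a term (diamond). The squamous, mitochondrial, hypoxia and Wnt medians keep their sign, whereas those of collagens and TGFb targets change it under either alternative.

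Sham was set beside both groups as a baseline. Among genes with a symbol, a mean level of at least 1 log2 CPM and ranges apart, Sham was nearer RT than TGFbi for 499 of 830 genes higher in TGFbi (60.1%) and for 767 of 1177 lower in TGFbi (65.2%), and its mean lay between the groups for 463 and 690 of them. The same share over all tested genes was not computed, so these counts do not tell which group departed from Sham. Sham shares its library code with TGFbi and not with RT. By edgeR's adjusted p, 1 gene differed between TGFbi and Sham (0.00624%, Fbln7; 8.48% had an unadjusted p under 0.05) and 0 between RT and Sham, where 672 (4.20%) had an unadjusted p under 0.05 in edgeR and DESeq2 called 1; the comparisons share tumors and are not independent.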

How the data were processed

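Per the labels' protocols, RNA was column-purified, depleted of ribosomal RNA and made into NEBNext Ultra II libraries. Values are read counts per Entrez gene, deposited by the authors as 1 table of raw counts for 16 libraries; the submitters' processing notes name the build GRCm38 and the file headers name Subread, with no version or settings. The strand setting and replicate origin beyond separate tumors are not given in the sources used here. Symbols were found for 25275 of 27179 genes. From these counts, 16017 genes passed edgeR's filterByExpr and were fitted over 15 tumors in 5 groups (edgeR 4.0.16 quasi-likelihood, TMM scaling, Benjamini-Hochberg threshold 0.05, R 4.3.3). The internal reference library was not used.

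The tumors compared and the gene lists were chosen with earlier results of these data known. Genes were named by a rule: among genes with a symbol, a mean of at least 1 log2 CPM and groups apart, 10 a direction (past the threshold first, then by smallest p), 4 members a list by smallest p, and Trp53, Tgfb1, Tgfbr1 and Cd274. Some genes that meet the rule are not reported here. Col1a1, Epcam and Trp63 were named after their values were seen. In 5 simulations of TGFbi against RT, 15801 to 15823 genes were tested. In each, 100 genes were given a change of 1 log2 and 100 a change of 2. On average 17.2% of the first and 57.8% of the second were recovered, with 3.4 false calls a run. The simulated tumors had no library-code effect, and the rates hold for that number of changed genes. Alternatives were DESeq2 1.42.0, limma-voom 3.58.1, other filters and scaling, fewer tumors, a replicate block, library code as a term, each tumor left out, and fits without the resubmitted libraries, without TGFbi+RT replicate 3 and triple replicate 2 (the tumors farthest out on the first principal component), or without mitochondrial genes, Rn7sk and another abundant transcript with no symbol here. The alternatives for the comparisons with Sham, and the counts of list members without TGFbi replicates 1 and 3 or RT replicate 1, were added after the data were seen.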

Additional observations from a re-analysis of the deposited data

How the results depend on the processing

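With 3 tumors a group, changes of 1 log2 were mostly below what the test could call. Genes called between TGFbi and RT numbered 2 in the fit of all 15 tumors, 1 with no low-count filter, 1 in the 6 tumors alone, 66 by DESeq2, 0 by limma-voom (981 at an unadjusted p under 0.05), 0 with the library code as a term (697) and 0 without the resubmitted libraries (847). With 1 tumor left out the count ran between 0 and 3: 0 without TGFbi replicate 2, TGFbi replicate 3, RT replicate 2, RT replicate 3 or Sham replicate 3, 1 without TGFbi replicate 1 (Crabp1) or RT replicate 1 (Ndp), and 3 without Sham replicate 1 (Krt90 added). TGFbi against Sham had 1 call, 3 in the 9 tumors alone, 127 by DESeq2, 0 by limma-voom, 0 without the resubmitted libraries and 0 to 5 with a tumor left out; RT against Sham had 0, 1 in the 9 tumors and 1 by DESeq2, and 0 to 0 with a tumor left out. Same-numbered TGFbi and RT tumors deviated together with correlations of 0.10, 0.24 and -0.21, so the numbers do not pair them; with the number as a replicate block, 0 genes were called for TGFbi against RT (954 at an unadjusted p under 0.05) and 0 for TGFbi against Sham.

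With the library code as a term, list medians were 0.38 for TGFb targets, 0.23 for TGFb ligands and receptors, 0.22 for BMP, 1.24 for collagens, 0.71 for matrix glycoproteins, 0.98 for activated and 2.17 for resting fibroblast, 0.42 for pericyte and 1.92 for macrophage markers, 1.78 for interferon response, 0.16 for apoptosis, 0.65 for hypoxia, 0.27 for p53 targets, -0.11 for homologous recombination and -0.16 for end joining; Col1a1 was at 1.82, Tgfbr1 at 0.51, Hey1 at 0.22, Acvr1 at 0.21, Smad7 at 0.20, Isg15 at 0.44, Irf9 at 0.32 and Brca2 at -0.23. Each of these code-term values rests on the triple group alone and cannot tell a code effect from differences among its tumors. The T cell median was 0.25 in the 6 tumors, 0.25 in the 9 tumors and 0.19 by limma-voom, the basal median 0.16 by limma-voom, and the mitochondrial median 0.36 without the resubmitted libraries, where Tgfb1 was at -0.072. Col1a1 was at 0.27 by limma-voom and 0.23 with the replicate block. With 1 tumor left out, medians ran from -0.82 to 0.49 for activated and 0.11 to 1.76 for resting fibroblast, -0.36 to 2.88 for adipocyte, -0.15 to 0.42 for basal, 0.72 to 2.86 for erythrocyte (1.15 over all), -1.33 to -0.21 for luminal, -0.73 to 0.79 for macrophage, -0.66 to 0.00015 for pericyte and -0.77 to 0.41 for T cell markers, -0.28 to 0.018 for apoptosis, -0.73 to 0.70 for collagens, -0.53 to 0.31 for matrix glycoproteins, -0.38 to 0.32 for TGFb targets, -0.32 to 0.17 for TGFb ligands and -0.11 to 0.078 for p53 targets. Single genes that changed sign ran from -0.95 to 1.38 (Col1a1), -0.051 to 0.87 (Fzd4), -0.53 to 5.31 (Krt19), -0.17 to 0.054 (Smad7) and -0.11 to 0.55 (Tgfb1). The causes were not tested.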
